A study of Mus musculus with 19 samples.

Results

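Symbols that begin with Gm and end in a number are given to mouse gene models that carry no other name. Of 39179 gene rows counted in each library, 12874 have such a symbol, and 6296 of these had at least 1 count. The 51 described here are those with a mean of at least 10 CPM (counts of the gene in each 1000000 counts of the library) over all 19 libraries. They were chosen by that mean, so their overall levels are a description and not a finding.

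A Gm model can stand for several kinds of locus. Some are long noncoding RNAs, some are processed pseudogenes (copies of a messenger RNA written back into the genome), and some are antisense or intronic transcripts of a named gene. Others are coding models that join or repeat the exons of named genes, and a few resemble ribosomal RNA, the RNA of the ribosome, most of which lacks a poly(A) tail. Short reads cannot always tell such a model from the gene it copies or overlaps.

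The RNA was polyadenylated RNA of cerebral microvessels, which are small brain vessels, from male C57BL/6 mice bought at 7 weeks of age. Reads of 80 nt were single-end and strand-specific. The titles give 5 groups: Room-air (room air, 4 libraries), Nic-free (electronic cigarette without nicotine, 4), Nic (electronic cigarette with nicotine, 3), air (a further set in room air, 4) and smoke (4). All mice share strain and sex, and dose, duration and age at collection are not given in the sources used here. Room-air was taken as the control of both electronic cigarette groups and air as the control of smoke by the style of the titles, since no label ties a control to an exposure.

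The Room-air libraries held 25266790 to 30185056 counts, the Nic-free libraries 15200536 to 19137859 and the Nic libraries 21800157 to 28364198. The air libraries held 9761373 to 13490373 and the smoke libraries 7939180 to 12607538. All 8 endothelial markers had counts in every group, at a summed 0.0892 to 0.3915% of counts, but all 8 neuron markers did too, at 0.3474 to 0.7351%. Reads assigned to no feature were 28.66 to 33.4% in Room-air and 38.86 to 45.16% in Nic-free, so these groups did not overlap. Library air 2 stood apart in Gm42418, Gm23935 and Gm15564, and of the Nic libraries Nic 3 was the nearest to the Room-air mean in 24 of the 51 members, against 15 for Nic 1 and 12 for Nic 2. Counts of called members, and calls of named models, that rest on 1 of these libraries are given with and without it.

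The sequences below carry the main patterns and come from the GENCODE M21 transcripts (GRCm38), 5′ to 3′ on the strand of the model. Gm42418 is the most abundant member, and its first 80 bases (chr17:39846958-39847037, plus strand) hold a stretch known from small-subunit ribosomal RNA. Gm23935 (chr16:11144125-11144181, plus strand) is shown whole, with the 1 base that differs from its copy Gm24187 in capitals. Of Gm15564, 30 bases are shown (chr16:35981730-35981759, minus strand) from 72 aligned to Lars2, with the 1 differing base in capitals. The letters of Gm23935 and Gm15564 are known from large-subunit ribosomal RNA.
Gm42418: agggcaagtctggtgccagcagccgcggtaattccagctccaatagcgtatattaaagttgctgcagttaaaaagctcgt
Gm23935: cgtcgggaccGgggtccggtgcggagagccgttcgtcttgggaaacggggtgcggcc
Gm15564: ggaacgtgagctgggTttagaccgtcgtga

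Gm10115 (chr2:6951535-6951594) and Gm14776 (chrX:87771513-87771572), both on the minus strand, are shown around their longest run of A, in capitals, because they had the largest rises in Nic-free against Room-air. Runs of 10 or more A stood in 11 of the 51 members, and the member with the longest one, Gm38394 with 22, had the largest fall in that comparison. Gm38394 has 10156 exonic bases, against 1228 in Gm10115 and 887 in Gm14776. Such runs were not counted in other transcripts, and their part in these changes was not tested.
Gm10115: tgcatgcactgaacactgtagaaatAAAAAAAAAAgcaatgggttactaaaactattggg
Gm14776: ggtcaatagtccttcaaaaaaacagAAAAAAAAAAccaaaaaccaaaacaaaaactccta

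Gm2830 (chr13:54499794-54499873, minus strand) and Gm2710 (chr1:172669323-172669402, minus strand) are processed pseudogenes of Rps24 and Hmgb1. They are shown beside 80 coding bases of the parent gene, where the copies differ most, with differing bases in capitals. Over the whole alignment Gm2830 was identical to Rps24 at 370 of 385 bases (96.1%) and Gm2710 to Hmgb1 at 587 of 603 (97.3%). The Rps24 stretch lies at chr14:24492069-24493414 (plus strand) and that of Hmgb1 at chr5:149049839-149050311 (minus strand), each spliced across an intron.
Gm2830: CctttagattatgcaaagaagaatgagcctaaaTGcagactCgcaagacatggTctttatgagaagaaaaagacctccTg
Rps24: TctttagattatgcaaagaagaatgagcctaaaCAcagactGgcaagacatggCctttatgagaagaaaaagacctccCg
Gm2710: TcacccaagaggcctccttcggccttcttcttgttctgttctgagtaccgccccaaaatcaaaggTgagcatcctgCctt
Hmgb1: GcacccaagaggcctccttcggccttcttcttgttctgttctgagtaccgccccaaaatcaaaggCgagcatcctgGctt

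Gm3764 spans the hairpin of Mir9-1, a microRNA gene of neural cells that lies outside its exons. The mature miRNA is shown from RefSeq (GRCm38.p6, chr3:88215613-88215635, plus strand), with the seed, bases 2 to 8, in capitals.
mmu-miR-9-5p: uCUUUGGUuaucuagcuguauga

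By annotated class, 27 of the 51 were long noncoding (11 lincRNA, 7 antisense, 6 processed transcripts and 3 sense intronic), 19 protein coding, 4 pseudogenes and 1 a microRNA model. All 51 had counts in every library, the lowest being 2 counts, of Gm47283 in smoke 4. Means ran from 10.01 CPM (Gm43517) to 3286 CPM (Gm42418), and 43 members were at a mean of at least 10 CPM in every group. The other 8, Gm14776, Gm49405, Gm8995, Gm14204, Gm11611, Gm3510, Gm13563 and Gm43517, passed the minimum only through the groups where they were high. Counts of called members below, and the differences of these 8 between groups, are therefore a description and support nothing by themselves. Just inside the minimum were Gm3510 (10.9 CPM), Gm13563 (10.8) and Gm43517 (10.01), and just outside were Gm9866 (9.85), Gm26532 (9.76) and Gm5124 (9.70).

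**Figure D1:**
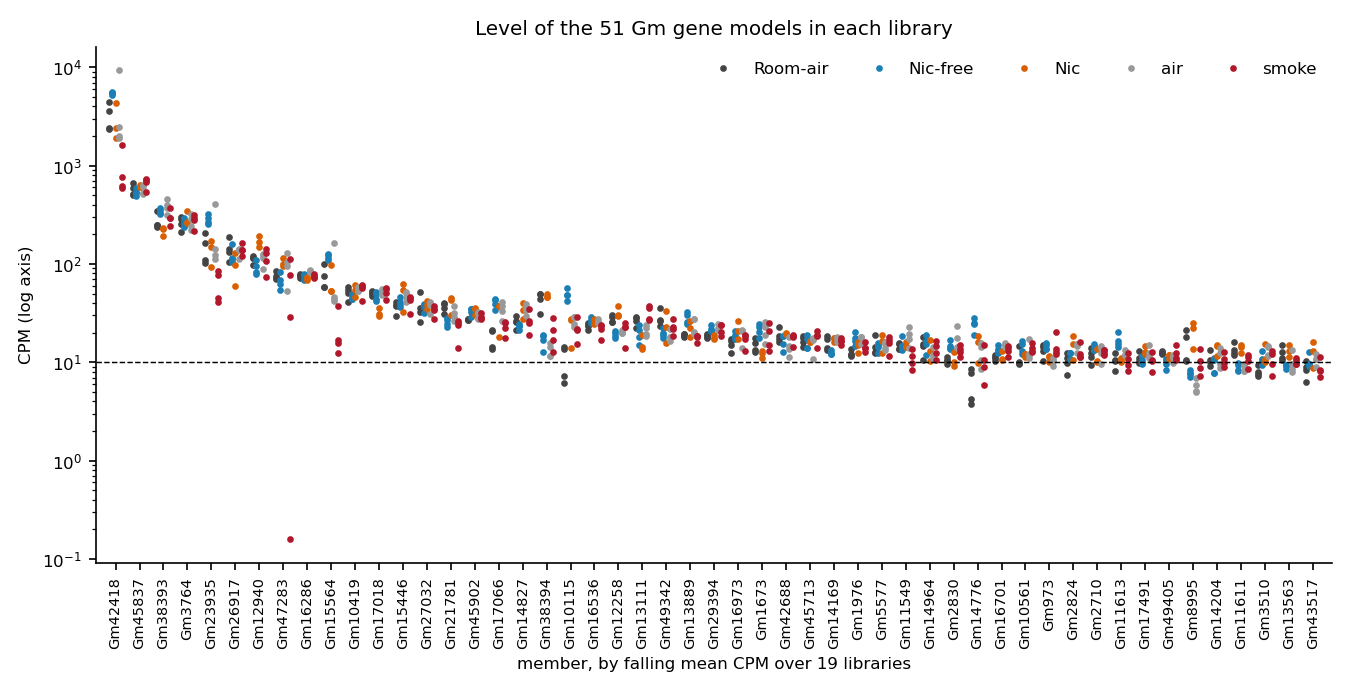
Level of each of the 51 models in each of the 19 libraries, in CPM on a log axis, ordered by falling mean and coloured by group, with the minimum of 10 CPM dashed. Gm42418 lies above all others at 591 to 9284 CPM, and the single low point is Gm47283 at 0.159 CPM in smoke 4.

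Per kilobase of exon, the level was highest in Gm23935 (2917 CPM per kb over 57 bases, a model shorter than a read) and Gm42418 (1794). Next came Gm45837 at 143 and Gm15564 at 86.6 CPM per kb. Without Gm42418, the members took 0.234 to 0.3028% of the counts of a library, and with it 0.2964 to 1.2312%, so that 1 model sets most of the spread of the sum.

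The name Gm does not mean an unknown gene in every case. In 9 coding members the exons overlap, on the same strand, a named coding gene whose GENCODE M21 identifier is not a row of the counts, so reads in the shared exons cannot be told apart. They are Gm45837 (Pde2a, a phosphodiesterase of cyclic nucleotides), Gm38393 (Snrpn and Snurf, an imprinted locus that encodes a spliceosomal protein), Gm45902 (Hspa14, of the Hsp70 family) and Gm38394 (Zc3h11a and Zbed6, which encode zinc finger proteins). The others are Gm49342 (Pnp, purine nucleoside phosphorylase), Gm45713 (Flt3l, the ligand of the receptor Flt3), Gm49405 (Nudt8, a nudix hydrolase), Gm42688 (Ccdc142) and Gm29394 (9130401M01Rik). Of the 80-base windows of Gm45837, 97.3% were shared with an overlapping gene, the highest of the 9, and of Gm38394 90.2%. Gm38393 had 7.2% and Gm45902 5.7%, the lowest, and the other 5 had 60.4% (Gm29394) to 95.2% (Gm49342). In 18 members every window was unique among the annotated transcripts, while 12 shared windows with genes elsewhere in the genome. For the members that share sequence, the level of the model alone is uncertain.

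Electronic cigarette vapour without nicotine was compared with room air. Of the 51 members 17 rose and 6 fell by edgeR's test (adjusted p under 0.05 over all 17235 genes tested), where 21.8% of all genes tested passed (11.3% higher and 10.4% lower). Among genes tested with a mean of at least 10 CPM, 24.7% passed. The median log2 fold change of the members was 0.11, against 0.00 over all genes tested. Of the other 1048 Gm models tested, below the minimum, 21.9% passed. Leaving out Room-air 3, Nic-free 2 or Nic-free 4 lowered the count of called members to 15, 12 or 15, with 16.0%, 12.7% or 13.6% of all genes called. With air as control in place of Room-air 3 members and 4.22% of all genes passed, 1 of them among the 23, and 9 of the 23 changed sign. That change of control is not among the alternatives counted for single models below.

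In vapour with nicotine against room air, 2 members rose and 2 fell, where 3.89% of all genes tested passed (1.22% higher and 2.67% lower). At a mean of at least 10 CPM 4.51% passed (1.54% higher and 2.97% lower). The median log2 fold change was 0.08, against 0.03 over all genes. The count of called members rests on single libraries: without Nic 3 it was 15 (17.1% of all genes). Without Room-air 1, Room-air 3 or Nic 2 it was 1, 2 or 1 (0.653%, 2.1% or 2.44%). Without Room-air 2 or Nic 1 no member and no gene passed. Without Nic 3, Gm10115, Gm17066, Gm3510, Gm47283 and Gm43517 also passed as higher (edgeR adjusted p 0.0171, 0.00429, 0.0159, 0.0485 and 0.0146). Gm49342 then passed as lower (0.0366). With all libraries the adjusted p of these models was 0.0627 to 0.506. DESeq2 called 9 members and 9.82% of the genes to which it gave an adjusted p. The air set as control gave 14 members and 29.96% of all genes. With nicotine against without, which shares the Nic-free libraries with the first comparison, 11 members rose and 12 fell, where 24.8% of all genes tested passed (12.4% in each direction) and 31.2% of those at a mean of at least 10 CPM. The median log2 fold change was −0.04 for the members and 0.02 for all genes. Without Nic 3 the comparison called 22 members and 27.0% of all genes. Gm13111 and Gm2710 then passed as lower (edgeR adjusted p 0.0248 and 0.0146), and Gm10115 no longer passed (0.0539). With all libraries their adjusted p was 0.103, 0.062 and 0.0194.

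In smoke against air no member passed in edgeR, where 1.6% of 15232 genes tested passed (1.08% higher and 0.519% lower). Of those at a mean of at least 10 CPM 2.03% passed (1.35% higher and 0.681% lower). At an unadjusted p under 0.05 there were 15 members, against 19.3% of all genes tested and 21.8% of those at a mean of at least 10 CPM. DESeq2 called 6 members and 6.7% of the genes to which it gave an adjusted p. The median log2 fold change was −0.15 against 0.02 over all genes, and 12 members had groups that did not overlap, as had 11.3% of all genes tested and 12.8% of those at a mean of at least 10 CPM. The air and Room-air sets carry the same exposure label, yet 13 members were higher and 5 lower in air than in Room-air, where 22.7% of all genes tested passed and 26.5% of those at a mean of at least 10 CPM. The median log2 fold change between the sets was 0.18 for the members and 0.00 for all genes. Over the 5 comparisons, 16 members were called in none, 12 in 1, 13 in 2 and 10 in 3. The same count was not made over all genes, and the comparisons share libraries, so it is a description only.

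**Figure D2:**
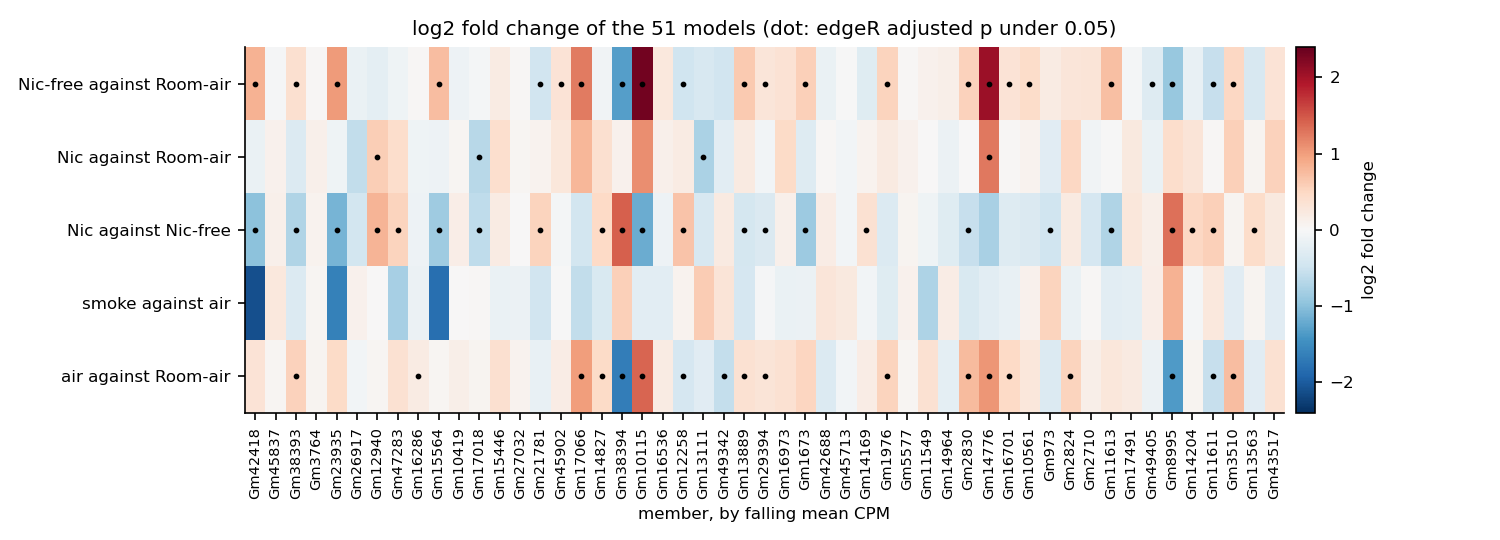
log2 fold change of the 51 models (columns, by falling mean level) in the 5 comparisons (rows), with red for higher and blue for lower in the first-named group and a dot for an edgeR adjusted p under 0.05. Gm10115 and Gm14776 are the darkest red in Nic-free against Room-air, and Gm42418, Gm23935 and Gm15564 are blue without a dot in smoke against air.

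Cell type markers moved with these groups. Neuron markers summed to 0.4114 to 0.4896% of counts in Room-air, 0.6257 to 0.7351% in Nic-free, 0.4538 to 0.4974% in Nic, 0.5371 to 0.6955% in air and 0.3474 to 0.5072% in smoke, so Nic-free and air lay above Room-air without overlap. Oligodendrocyte markers did the same, at 1.2558 to 1.5182% in Room-air, 1.8601 to 2.038% in Nic-free and 2.27 to 3.1669% in air. Endothelial markers were 0.2108 to 0.29% in Room-air, 0.1407 to 0.2151% in Nic-free and 0.0892 to 0.1661% in air. Astrocyte markers (0.1174 to 0.1505% in Room-air, 0.1689 to 0.1833% in Nic-free) and microglia markers (0.0284 to 0.0344%, 0.038 to 0.0442%) were also higher in Nic-free without overlap. The widest spread was that of choroid plexus and ependyma markers, at 2.2485 to 2.9886% in Room-air against 0.2989 to 0.918% in Nic, without overlap, 0.1326 to 2.2498% in Nic-free, 0.4548 to 2.833% in air and 0.2379 to 3.517% in smoke. Their part in the results below was not tested, nor was that of the reads without a feature. In such tissue RNA, fewer cells of a type and less RNA per cell cannot be told apart.

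The list of models that resemble ribosomal RNA has 3 members, Gm42418, Gm15564 and Gm26917, and they did not move together. Gm42418 and Gm15564, and Gm23935, which is not on the list, had their highest group mean in Nic-free and their lowest in smoke, while Gm26917 had its highest in Room-air and its lowest in Nic. Gm42418 (ENSMUSG00000098178, chr17:39846958-39848788, plus strand, a lincRNA model of 1 exon) lies in a locus where the annotation also has a ribosomal RNA on the other strand. Values are listed by library in replicate order. The model had 4423, 2376, 3561 and 2389 CPM in Room-air, 5612, 5214, 5452 and 5495 in Nic-free, and 1906, 2406 and 4357 in Nic. It had 1982, 9284, 1912 and 2476 CPM in air and 591, 758, 624 and 1609 in smoke. Nic-free thus lay above Room-air and Nic without overlap, smoke lay below air without overlap, and air 2 was far above every other library. The rise in Nic-free was 1.77-fold (log2 0.82 ± 0.25, SE, edgeR adjusted p 0.0336). It did not pass in 9 of 13 alternatives (adjusted p 0.057 to 0.241 in these 9). Leaving out Room-air 2, Room-air 3 or Room-air 4 or any 1 Nic-free library was enough.

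Gm23935, the microRNA model printed above, lies in an intron of Zc3h7a, a zinc finger gene on the other strand. Its level was 205, 103, 164 and 110 CPM in Room-air, 322, 253, 268 and 291 in Nic-free, and 92.1, 149 and 171 in Nic. In air it was 142, 404, 112 and 125 CPM and in smoke 45.6, 84.0, 41.5 and 78.0. The groups separated in the same places as for Gm42418, with air 2 again the highest library. The rise in Nic-free was 2.02-fold (log2 1.02 ± 0.23; edgeR adjusted p 0.0107), lost only in the fit of all 19 libraries among 13 alternatives (0.0827), while Zc3h7a had a log2 fold change of 0.11 (adjusted p 0.496). Its identical copies Gm24270 and Gm24245 were at most 0.158 CPM in any library.

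Gm15564 (ENSMUSG00000086324, chr16:35966752-35983230, minus strand) is antisense to Parp9, which encodes an ADP-ribosyltransferase family member. It had 100.3, 59.0, 76.1 and 58.7 CPM in Room-air, 122, 114, 126 and 110.4 in Nic-free, and 53.4, 53.1 and 98.1 in Nic. In air it had 44.0, 165, 42.2 and 45.8 CPM and in smoke 12.5, 17.0, 15.7 and 37.4. Nic-free was above Room-air and Nic in every library. The rise was 1.67-fold (log2 0.74 ± 0.21; edgeR adjusted p 0.0284), which did not pass in 7 of 13 alternatives, among them those without Room-air 2, 3 or 4 and without Nic-free 2 or 3. Parp9 had a log2 fold change of −0.32 (adjusted p 0.22).

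Lars2, the mitochondrial leucyl-tRNA synthetase, shares 71 of 72 bases with Gm15564 and is no Gm model. It followed the same order, with 307 to 516 CPM in Room-air, 637 to 711 in Nic-free, 276 to 541 in Nic, 967 in air 2 against 282 to 304 in the other air libraries, and 97.2 to 224 in smoke. Its log2 fold change was 0.82 ± 0.20 in Nic-free against Room-air (edgeR adjusted p 0.0144) and −1.69 ± 0.51 in smoke against air (0.142). Gm26917, the third member of the list, is a lincRNA model 617 bases from Gm42418 on the same strand and went another way. It had 105 to 189 CPM in Room-air, 104 to 160 in Nic-free, 59.3 to 130 in Nic, 111 to 143 in air and 121 to 162 in smoke. Its log2 fold change was −0.16 in Nic-free (adjusted p 0.674) and 0.10 in smoke (0.663).

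**Figure D3:**
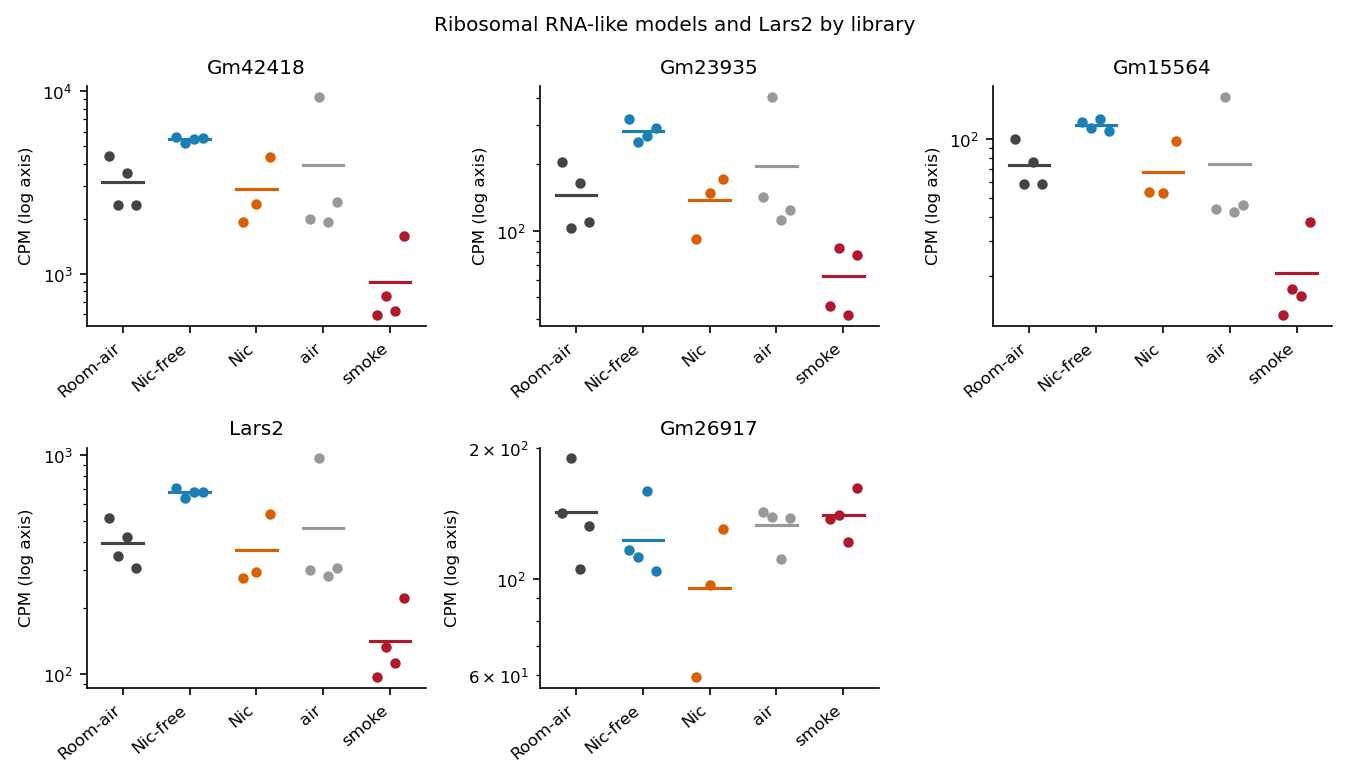
CPM by library (points, log axis) and group mean (bars) for Gm42418, Gm23935, Gm15564, Lars2 and Gm26917. In the first 4 panels air 2 is the highest library and the smoke libraries are below all air libraries; Gm26917 shows neither.

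In smoke against air the log2 fold changes were −2.11 ± 0.64 for Gm42418 (edgeR adjusted p 0.141), −1.62 ± 0.52 for Gm23935 (0.163) and −1.81 ± 0.62 for Gm15564 (0.19). Without air 2 they were −1.23, −0.99 and −1.06, with adjusted p 0.137, 0.153 and 0.215. None passed, although the groups did not overlap in any of the 3. In the fit of all 19 libraries the 3 passed, with adjusted p 0.0334, 0.0446 and 0.0487. The same fit ended the calls of all 3 in Nic-free against Room-air and in Nic against Nic-free. DESeq2 also called Gm23935 and Gm15564 in smoke against air (0.0351 and 0.0408). Nic against Nic-free gave −0.98 for Gm42418 (adjusted p 0.021), −1.11 for Gm23935 (0.00877) and −0.86 for Gm15564 (0.0188). The calls of Gm42418 and Gm15564 did not pass without Nic 1 or without Nic 2.

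The largest rise in Nic-free against Room-air was that of a noncoding model inside another gene. Gm10115 (ENSMUSG00000062319, chr2:6950453-6951680, minus strand) is a sense intronic model in Celf2, which encodes an RNA-binding regulator of splicing. It had 7.32, 6.13, 13.7 and 14.2 CPM in Room-air, 48.7, 57.5, 42.2 and 48.7 in Nic-free, and 26.9, 27.3 and 13.9 in Nic. It had 29.2, 24.4, 23.1 and 29.1 CPM in air and 21.3, 15.5, 21.7 and 28.9 in smoke. Every Nic-free library was above every other library, and the air set lay above Room-air without overlap.

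The rise of Gm10115 in Nic-free was 4.96-fold (log2 2.31 ± 0.30, edgeR adjusted p 0.00094) and passed in all 13 alternatives counted. Its host Celf2 had 354, 390, 427 and 427 CPM in Room-air and 557, 561, 483 and 646 in Nic-free (log2 0.54 ± 0.14, adjusted p 0.015). In air against Room-air Gm10115 rose by 1.40 ± 0.26 (adjusted p 0.00152) and Celf2 had 0.07 (0.737). In Nic, library 3 lay within the Room-air range for both genes, at 13.9 CPM for Gm10115 and 420 for Celf2, against 667 and 680 for Celf2 in Nic 1 and 2.

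Gm14776 (ENSMUSG00000083421, chrX:87771339-87772352, minus strand) is a processed pseudogene of Npm1, which encodes nucleophosmin, a nucleolar protein, with 505 of 552 aligned bases identical. It lies in an intron of Il1rapl1, whose protein acts at synapses. It had 4.21, 3.75, 7.72 and 8.55 CPM in Room-air, 24.5, 28.0, 18.8 and 25.3 in Nic-free, and 18.3, 16.1 and 9.94 in Nic. It had 14.3, 8.61, 10.5 and 15.7 CPM in air and 8.88, 5.92, 10.7 and 14.9 in smoke. Room-air was below all 3 of the other groups it was tested against, without overlap.

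Gm14776 is 1 of the 8 members below the minimum in a group (a mean of 6.06 CPM in Room-air), so its differences from Room-air are a description. Its log2 fold change was 2.05 ± 0.28 in Nic-free (edgeR adjusted p 0.00094), 1.27 ± 0.29 in Nic (0.0412) and 1.06 ± 0.29 in air (0.0157), each against Room-air. The call in Nic was lost in 7 of 12 alternatives, among them those without Room-air 1, 2 or 3 and without Nic 1 or 2. Il1rapl1 rose less, by 0.73 ± 0.15 in Nic-free (adjusted p 0.00403) and 0.69 in Nic (0.0308). The parent Npm1 had 0.21 in Nic-free (adjusted p 0.154).

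Gm17066 (ENSMUSG00000091509, chr14:105109390-105114676, minus strand) is a processed transcript that shares 413 of its 1113 exonic bases with Rbm26, which encodes an RNA-binding protein. It had 13.8, 14.2, 21.2 and 21.004 CPM in Room-air, 39.1, 42.7, 33.8 and 44.3 in Nic-free, and 37.4, 37.8 and 18.3 in Nic. It had 37.2, 40.7, 26.4 and 33.6 CPM in air and 22.2, 17.8, 25.4 and 24.9 in smoke. Nic-free and air lay above Room-air without overlap, Nic 3 lay within the Room-air range, and smoke lay below air without overlap.

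The rise of Gm17066 was 2.36-fold in Nic-free (log2 1.24 ± 0.23; edgeR adjusted p 0.00357), with Rbm26 at 0.13 (0.568). In air against Room-air the model had 1.01 (adjusted p 0.00201) and Rbm26 0.12 (0.539). In smoke against air Gm17066 had −0.59 (adjusted p 0.052, not called), and DESeq2 and the fit with no filter on low counts called it. Gm3510, a lincRNA 1285 bases from Cacna2d1, a calcium channel subunit gene on the other strand, rose by 0.50 in Nic-free (edgeR adjusted p 0.0334) and 0.73 in air (0.00344). The call in Nic-free was lost in 6 of 13 alternatives, all with 1 library left out. Gm3510 had a mean of 8.06 CPM in Room-air, below the minimum, so these differences are a description.

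**Figure D4:**
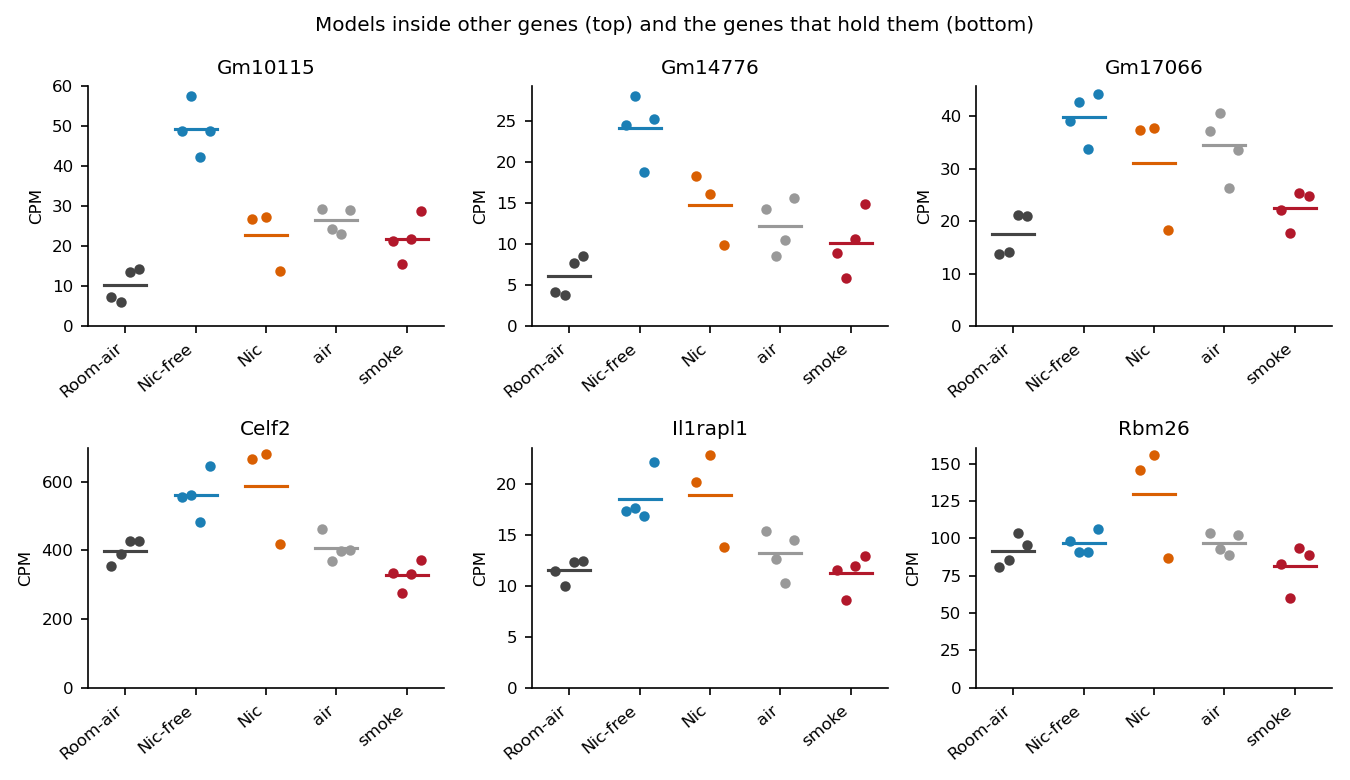
CPM by library (points) and group mean (bars), linear axes from 0, for Gm10115, Gm14776 and Gm17066 (top) and the genes that hold or overlap them, Celf2, Il1rapl1 and Rbm26 (bottom). The top panels rise further from Room-air to Nic-free than the lower ones, by 4.96-, 4.14- and 2.36-fold.

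Not every intronic model rose. Gm11611 (chr11:97519612-97521895, minus strand), sense intronic in Srcin1, which encodes a synaptic inhibitor of Src kinase, had 12.4, 16.2, 11.9 and 13.2 CPM in Room-air and 9.34, 8.34, 9.77 and 8.09 in Nic-free. All Nic-free libraries lay below all Room-air libraries. The model fell by 0.55 on the log2 scale (edgeR adjusted p 0.00767) and passed in all 13 alternatives counted, while Srcin1 rose by 0.31 ± 0.09 (0.0291). Gm11611 is among the members below the minimum in a group (a mean of 8.86 CPM in air), so its differences are a description. Gm17491, in an intron of the phosphate transporter gene Slc20a2, had a log2 fold change of −0.04 (edgeR adjusted p 0.854), and Slc20a2 fell by 0.48 (0.00128). Gm17491 is outside the naming rule and was chosen after its values were seen.

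There were 25 pairs of a member and an overlapping counted gene in which both were tested, 13 on the same strand and 12 on opposite strands. In Nic-free against Room-air 6 members and 6 genes were called in the 13, and 4 and 4 in the 12. Of all genes tested 21.8% passed. Both were called in 4 pairs, and in 3 of those the directions were equal. Whether that is more than the single calls would give was not tested. In 6 pairs the log2 fold changes of model and gene differed by more than 0.6. Model and overlapping gene were both called in Gm10115 with Celf2, Gm14776 with Il1rapl1, Gm11611 with Srcin1, and Gm10561 with Rftn2 on opposite strands (0.43 and 0.39). Gm10561 is outside the naming rule and was chosen after its values were seen. The difference between model and gene was not tested.

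**Figure D5:**
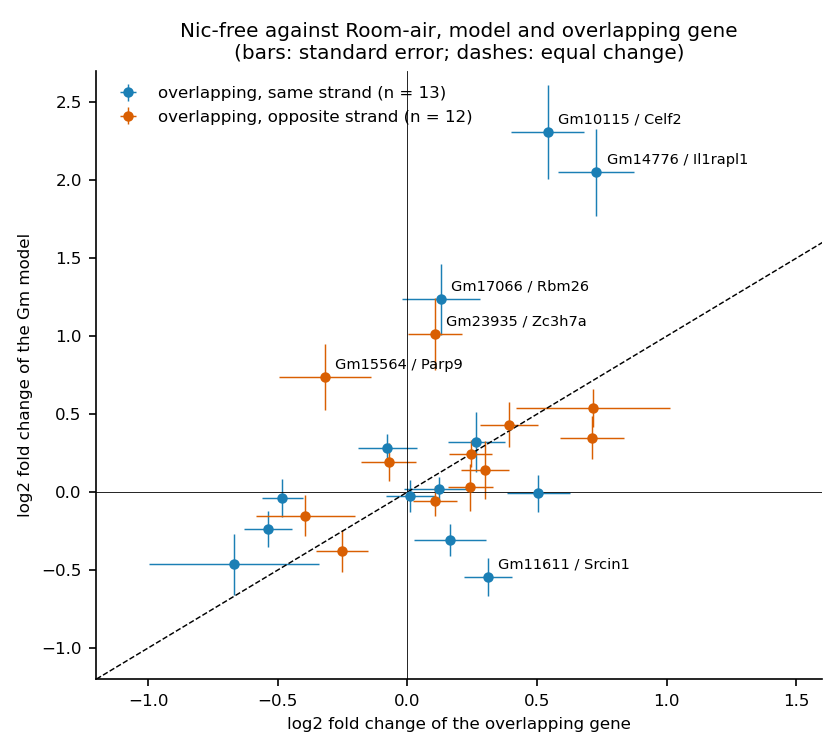
log2 fold change in Nic-free against Room-air of 25 members (vertical) against the gene that overlaps each (horizontal), with standard errors; blue is the same strand, orange the opposite one, and the dashed line marks equal change. Gm10115 and Gm14776 lie farthest above the line, and Gm11611 lies below it.

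Among the coding models, Gm38394 (ENSMUSG00000094410, chr1:133619940-133661318, minus strand), in the locus of Zc3h11a and Zbed6, had the largest fall. It had 49.6, 43.9, 49.1 and 30.9 CPM in Room-air, 18.7, 12.7, 16.9 and 18.9 in Nic-free, and 46.1, 49.97 and 46.1 in Nic. It had 15.7, 11.7, 14.3 and 11.6 CPM in air and 16.7, 12.7, 28.0 and 21.1 in smoke. Room-air and Nic were the high groups, and no library of the other groups reached them.

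Gm38394 fell by 1.32 ± 0.15 on the log2 scale in Nic-free (edgeR adjusted p 0.000177), rose by 1.43 ± 0.15 in Nic against Nic-free (0.000212) and was lower in air than in Room-air by −1.66 ± 0.18 (2.03e-05). Each of these passed in every alternative counted for it, and these leave out the change of control set. Its Nic-free and air libraries overlapped in CPM. In Nic against Room-air its 3 Nic libraries lay within or close to the Room-air values, at 46.1 to 49.97 against 30.9 to 49.6 CPM.

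Gm38393, in the locus of Snrpn and Snurf, went the other way. It had 343, 239, 246 and 250.2 CPM in Room-air, 320.0, 350.2, 327 and 369.8 in Nic-free, and 192, 225 and 234 in Nic. It had 373, 400, 456 and 317 CPM in air and 291, 374, 244 and 294 in smoke. Nic was below Nic-free without overlap, while Room-air 1 reached into the Nic-free range.

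The log2 fold change of Gm38393 was −0.73 ± 0.13 in Nic against Nic-free (edgeR adjusted p 0.00141, in every alternative), 0.39 in Nic-free against Room-air (0.0278, lost in 6 of 13 alternatives, 5 of them with 1 library left out) and 0.56 in air against Room-air (0.0113, lost without air 3). The most abundant coding model, Gm45837 in the Pde2a locus, had 504.9 to 658.8 CPM in Room-air, 495 to 586 in Nic-free, 610 to 632 in Nic, 517 to 632 in air and 536 to 724 in smoke, and was called in no comparison.

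Gm12940 (chr4:127033731-127049398, plus strand), a processed transcript that starts in exons of the splicing factor gene Sfpq and runs across Zmym1 on the other strand, was 1 of the 4 members called in Nic against Room-air. It had 98.4, 114, 114 and 122 CPM in Room-air and 168, 195 and 150.3 in Nic, and the groups did not overlap. The rise was 1.5-fold (log2 0.59 ± 0.12; edgeR adjusted p 0.0266), lost without Room-air 1 or 2, without Nic 1 or 2 and in the fit of all 19 libraries. Sfpq stood at 0.01 (0.974). Against Nic-free, where Gm12940 had 79.9 to 109 CPM, the rise was 0.82 ± 0.12 (adjusted p 0.000617), and Sfpq rose by 0.55 (0.0016).

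Gm17018 (chr19:45560615-45579763, plus strand), a coding model opposite to Fbxw4, which encodes an F-box protein, fell in Nic. It had 49.1, 53.4, 52.1 and 47.0 CPM in Room-air, 52.0, 49.9, 43.7 and 41.6 in Nic-free, and 30.7, 29.8 and 36.0 in Nic. The 3 Nic libraries were below all 8 of the others. It fell by 0.67 ± 0.11 on the log2 scale against Room-air (edgeR adjusted p 0.0197, lost without Room-air 2 or Nic 1) and by 0.61 against Nic-free (0.00139), with Fbxw4 at −0.01 (0.977) and −0.11 (0.389).

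Gm13111, an antisense model on chromosome 4, was the other member that fell in Nic against Room-air. It had 28.7, 26.1, 28.0 and 22.2 CPM in Room-air and 13.5, 14.5 and 19.04 in Nic, without overlap. The fall was 0.59-fold (log2 −0.76 ± 0.16; edgeR adjusted p 0.0277), lost without Room-air 1, 2 or 3 and without Nic 1 or 2. In smoke it had 26.6, 35.5, 36.96 and 27.4 CPM against 18.5, 19.6, 23.9 and 22.4 in air, again without overlap. It was not called there (edgeR adjusted p 0.0611), but it passed in 3 of 13 alternatives, DESeq2 (0.0125), the fit with no filter on low counts (0.0196) and the fit of all 19 libraries (0.049).

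Further coding models named by the rule are given next. Gm12258, which shares 2.1% of its windows with the zinc finger gene Zfp39 and with 2810021J22Rik, had 25.6 to 30.5 CPM in Room-air, 17.5 to 20.6 in Nic-free, 29.4 to 37.2 in Nic and 19.7 to 21.4 in air. Nic-free and air were both below Room-air without overlap. It fell by 0.48 in Nic-free (edgeR adjusted p 0.0053), rose by 0.68 in Nic against Nic-free (0.000875), and was lower in air by −0.41 (0.0174, lost without Room-air 2).

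Gm1673, a short coding model near Nat8l, which encodes the enzyme of N-acetylaspartate synthesis, had 12.7 to 17.7 CPM in Room-air, 17.6 to 24.6 in Nic-free and 10.97 to 13.1 in Nic. Nic-free was above Nic without overlap. The log2 fold change was 0.57 in Nic-free (edgeR adjusted p 0.00782) and −0.88 in Nic against Nic-free (0.000947). Gm49342, in the Pnp locus, was lower in air than in Room-air (−0.57, adjusted p 0.0342, lost in 6 of 13 alternatives, 5 of them without Room-air 2 or 3 or air 1, 2 or 3). Gm43517 was called in no comparison with all libraries, but it passed in Nic against Room-air without Nic 3 (0.76, edgeR adjusted p 0.0146). Gm16286, over the spliceosome gene Txnl4a, passed in air against Room-air (0.20, adjusted p 0.0398). That call was lost in 8 of 13 alternatives, among them those without Room-air 3 or 4 or air 2, 3 or 4.

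The other pseudogenes can be set beside their parent genes. Gm8995 (chr7:106504239-106511671, minus strand) belongs to the copies of the very large interferon-inducible GTPases and was 91.9% identical to Gm8979 over 7300 bases. It had 18.0, 10.5, 21.5 and 10.3 CPM in Room-air, 7.10, 7.65, 8.36 and 7.76 in Nic-free, and 22.2, 13.5 and 25.3 in Nic. It had 5.94, 6.86, 4.97 and 5.09 CPM in air and 10.3, 7.31, 8.69 and 13.8 in smoke. Nic-free and air were below Room-air, and smoke above air, without overlap.

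Gm8995 is among the members below the minimum in a group (a mean of 5.715 CPM in air), so its differences are a description. It fell by 0.91 ± 0.25 in Nic-free (edgeR adjusted p 0.0238). That call was lost with no filter on low counts and without Room-air 1 or 3 or Nic-free 2 or 4. Without Nic-free 1 it stood at the threshold. Gm8995 was 2.51-fold higher in Nic than in Nic-free (adjusted p 0.00405) and lower in air than in Room-air (−1.36, 0.00115). In smoke against air the log2 fold change was 0.84 ± 0.19 (adjusted p 0.0512), and DESeq2 and the fit with no filter on low counts called it. Gvin1, a coding gene of the family at 0.197 to 1.69 CPM, had −1.36 in Nic-free (adjusted p 0.0215), 1.88 in Nic against Nic-free (0.0035) and −1.12 in air against Room-air (0.0322).

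Gm2830, the copy of Rps24, a ribosomal protein gene, had 11.2, 9.59, 10.4 and 10.5 CPM in Room-air and 14.1, 17.0, 14.6 and 13.6 in Nic-free. In air it had 14.0, 23.2, 17.6 and 14.2 CPM, so both groups were above Room-air without overlap. The log2 fold change was 0.56 ± 0.12 in Nic-free (edgeR adjusted p 0.00557) and 0.77 ± 0.15 in air (0.00204), and that of Rps24 was 0.64 (0.0024) and 0.86 (0.00152). Gm2710, the copy of Hmgb1, a chromatin protein, was called in no comparison with all libraries, and neither was Hmgb1 (0.22 in Nic-free, adjusted p 0.146). Without Nic 3, Gm2710 passed in Nic against Nic-free (−0.55, edgeR adjusted p 0.0146). Of the windows of Gm2710, 30.7% were shared with 41 other genes, so its level is uncertain.

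Besides Gm23935, 2 members at loci of the Mir9 and Mir124a families were called in no comparison. Gm3764, the lincRNA over Mir9-1, had 212 to 297 CPM in Room-air, 239 to 291 in Nic-free, 261 to 343 in Nic, 220.3 to 322 in air and 216 to 311 in smoke. Gm27032 (outside the naming rule, chosen after its values were seen), which shares its first 3 bases with the end of the Mir124a-3 model, had 26.0 to 51.4 CPM in Room-air and 31.6 to 38.7 in Nic-free. Gm10419, a lincRNA near Pde6b, a phosphodiesterase gene of photoreceptors, had 41.2 to 60.9 CPM over the libraries of the first 3 groups and was not called either. Gm13563, antisense to Entr1, was called in Nic against Nic-free (0.44, edgeR adjusted p 0.0353), together with Entr1 (0.46, 0.00686). It lost the call in 6 of 12 alternatives, each with 1 of Nic-free 1 to 4, Nic 1 or Nic 2 left out. Its mean in Nic-free was 9.16 CPM, below the minimum, so this difference is a description.

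Gm47283 (chrY:90784738-90816464, plus strand) is a coding model whose transcript was identical to Gm21887 of the X chromosome over 529 aligned bases. It had 70.2, 84.2, 74.9 and 72.3 CPM in Room-air, 54.3, 83.6, 63.2 and 68.5 in Nic-free, 95.6, 114 and 100.2 in Nic, and 94.7, 129, 53.3 and 105 in air. In smoke 1 to 4 it had 112, 28.8, 77.3 and 0.159 CPM. Smoke 4 thus had almost none, and smoke 2 less than any library of the other groups.

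The Y-linked genes Ddx3y, Uty, Kdm5d and Eif2s3y were at 67.7, 18.5, 33.9 and 144 CPM in smoke 4. In smoke 2 they were at 59.3, 16.2, 26.2 and 95.4 CPM. Over all 19 libraries they ran from 59.3 to 126, 16.2 to 38.2, 24.2 to 49.97 and 95.4 to 202 CPM. Smoke 2 was thus the lowest library for Ddx3y, Uty and Eif2s3y but not for Kdm5d, and smoke 4 was the lowest for none. Mid1, a ubiquitin ligase gene at the border of the region that X and Y share, was at 2.06 CPM in smoke 4 and 2.90 in smoke 2. It was at 13.7 and 8.36 CPM in smoke 1 and 3. In Nic-free against Room-air Mid1 had a log2 fold change of −1.15 (edgeR adjusted p 0.00177) and Gm47283 −0.11 (0.542). In Nic against Nic-free Mid1 had 1.25 (0.00108). A link between these genes was not tested. The log2 fold change of Gm47283 in smoke against air was −0.79 ± 1.06 (edgeR adjusted p 0.739) and −0.39 without smoke 4. In Nic against Nic-free it rose by 0.54 ± 0.13 (0.00768), with no overlap between the groups, and the call was lost in the fit of all 19 libraries (adjusted p 0.636).

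Members outside the naming rule are given by their range. These 24 had means of 10.996 to 42.7 CPM. In Nic-free against Room-air 7 of them rose and 2 fell (21.8% of all genes passed), with log2 fold changes from −0.46 (Gm21781) to 0.73 (Gm11613). Gm11613, a processed transcript near Mllt6, had 14.3 to 20.3 CPM in Nic-free against 8.18 to 12.5 in Room-air (edgeR adjusted p 0.00305; chosen after its values were seen). In Nic against Nic-free 4 of the 24 rose and 4 fell (24.8% of all genes), and in air against Room-air 6 were higher (22.7%). Other lists of Gm models gave no member of the 51. Of 10 models that resemble mitochondrial DNA 3 are listed, with means of 0.08 to 6.50 CPM, and all 37 genes of the mitochondrial genome are listed at 0 counts in every library. All 13 models that resemble satellite repeats are listed, at no more than 1.28 CPM in any library.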

How the data were processed

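The authors deposited raw read counts per Ensembl gene for each of 19 libraries. Per the submitters' processing notes, STAR and HTSeq were used with build mm10, and versions, annotation release and strand setting are not given in the sources used here. The 5 summary lines that name no gene were left out of totals. Symbols were found for 37607 of 39179 identifiers, and 37693 are in GENCODE M21, from which biotype, position and overlap were taken.

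Counts were tested with edgeR 4.0.16 (R 4.3.3; TMM, filterByExpr, robust glmQLFit, glmQLFTest, two-sided, Benjamini-Hochberg over all genes tested, threshold 0.05). The 11 electronic cigarette and Room-air libraries were fitted together, the 8 of smoke and air together, and air against Room-air came from all 19. Errors of log2 fold changes are standard errors. Nothing says that libraries came from separate mice, so the p-values speak only of variation among these libraries. The fits were tested on simulated data. DESeq2 1.42.0 and other settings were alternatives.

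Named were the 12 highest members, the 4 largest called changes each way per comparison without overlap, the 4 highest of each class, members of the lists that resemble ribosomal RNA, mitochondrial DNA or satellite repeats, and those beside the minimum. Members and lists were chosen with earlier results of these data known. Windows of 80 bases and blastn 2.17.0 matches were searched in the M21 transcripts. The sequence of 1 named model and the gene that 1 other overlaps are not reported here.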

Additional observations from a re-analysis of the deposited data

Results flagged for a closer look

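Among 108 sets of 4 libraries (27 named models in 4 groups), 9 had a library far from the other 3 by Dixon's ratio, and chance flags about 1 in 20 such sets. In the air group, air 2 was highest for Gm42418 (9284 CPM, next 2476), Gm23935 (404 CPM, next 142) and Gm15564 (165 CPM, next 45.8). These 3 models resemble ribosomal RNA and are not independent of one another. Gm42418 was also flagged in smoke 4 (1609 CPM, next 758). Air 3 was lowest for Gm26917 (111 CPM, next 138). Room-air 1 was highest for Gm38393 (343 CPM, next 250.2). In the Nic-free group, Nic-free 4 was highest for Gm10419 (49.2 CPM, next 44.7) and Gm43517 (12.7 CPM, next 9.60), and Nic-free 2 was lowest for Gm13563 (8.56 CPM, next 9.27). The cause of each was not tested.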

How the results depend on the processing

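The change of control set is given for the counts of called members only and is left out of the alternatives of single models. Under it some called members changed sign, as given above. Under the other alternatives, of 45 calls of a named model 24 passed in every one and all 45 kept their sign. Percentages in brackets are the share of all genes called in the same fits. The count of called members in Nic-free against Room-air was 23 (21.8%). With 1 library left out it was 12 to 20 (12.7 to 20.5%), the lowest without Nic-free 2. It was 3 (4.22%) with the other air set as control. In Nic against Room-air the count was 4 (3.89%), with 9 by DESeq2 (9.82%) and 14 with the other air set as control (29.96%). With 1 library left out it was 0 to 15 (0 to 17.1%), 0 without Room-air 2 or Nic 1 and 15 without Nic 3. In Nic against Nic-free it was 23 (24.8%), and 16 to 22 (13.7 to 27.0%) with 1 left out. In smoke against air it was 0 (1.6%), with 6 by DESeq2 (6.7%) and 4 with no filter on low counts (1.89%). It was 5 in the fit of all 19 libraries (3.13%) and 5 with the other air set as control (6.2%). With any 1 library left out it was 0 (0.00645 to 1.26%). In air against Room-air it was 18, and 13 to 18 with 1 left out. The causes were not tested. A minimum of 5 or 20 CPM gives 106 or 26 members.

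Equal replicate numbers did not pair the libraries: correlations of same-numbered libraries ran from −0.432 to 0.42. With the replicate block the counts were 19, 4, 20, 0 and 16 in the order of the report, none moved by over 1.5 times. Depth was lowest in air and smoke, and its part in the counts was not tested. Counts carry no molecular identifiers, so duplicates of 1 molecule count as several, and models that share sequence or an unlisted gene have uncertain levels.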
